A study of Mus musculus with 8 samples.

Results

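The genes of the U2 small nuclear ribonucleoprotein (U2 snRNP) that encode its U2-specific, SF3A and SF3B proteins were described across 8 transcriptomes of early mouse embryos. The 10 genes were taken by symbol from a fixed list, and all 10 were found among the 21553 genes with a value. They are Snrpa1 and Snrpb2 (U2-specific proteins), Sf3a1, Sf3a2 and Sf3a3 (the SF3A trimer), and Sf3b1, Sf3b2, Sf3b3, Sf3b4 and Phf5a (SF3B).

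The U2 snRNP recognises the branch site of an intron. Its RNA pairs with the branch sequence, SF3B clamps the resulting helix, SF3A ties SF3B to the core of the particle, and the U2-specific pair sits on a stem-loop of the RNA. In the mouse zygote, splicing at first relies on components stored by the oocyte, and much of the stored mRNA is degraded around the time when the embryonic genome becomes active.

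Each library was made from polyadenylated RNA of 40 whole embryos of B6CBA F1 crosses, pooled over 3 experiments. All embryos had been microinjected with mRNA as zygotes: with mRNA for mCherry, a red fluorescent protein that served as the control, with Snrpb mRNA, with Snrpd2 mRNA, or with both Snrpb and Snrpd2 mRNA (called the combined injection here). Snrpb and Snrpd2 encode proteins of the Sm ring, which is shared by U1, U2, U4 and U5 snRNPs. RNA was taken 5 h after injection at the 1-cell stage or 24 h after injection at the 2-cell stage, which gave 8 conditions with 1 library each. No library came from uninjected embryos. The series compares overexpression of Snrpb and Snrpd2 with the control at both stages.

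The 1-cell libraries held between 49461122 and 59979046 counted reads and the 2-cell libraries between 39492734 and 44648717. The labels were met by the injected mRNAs. Snrpb stood at 43849.91 and 11913.49 cRPKM in the 1-cell libraries given it and at 7.96 and 6.09 in the other 1-cell libraries, and Snrpd2 at 17926.25 and 9141.58 against 1.89 and 0.85. The unit cRPKM is the deposited RPKM value, reads divided by library total and by a length set for each gene. For some members that length was well below the length of the longest coding transcript, as given further below. Of 12 oocyte and zygote markers 11 were found, and they summed to 7177 to 7905 cRPKM at the 1-cell stage and 5525 to 6516 at the 2-cell stage. Among them Oosp1 rose, from between 418.25 and 540.94 to between 1289.20 and 1519.87 cRPKM. Dppa3 overlapped between the stages, and the others fell. The 8 markers of the 2-cell stage summed to 68.1 to 95.5 cRPKM and then to 822 to 1102. Gm5662 made up most of the later sum, at 532.55 to 827.50 cRPKM. Sp110 made up most of the earlier sum and fell, from between 54.96 and 77.90 to between 21.93 and 24.71 cRPKM, while the others rose. The 14 cumulus and granulosa markers summed to 22.7 (mCherry) to 48.2 (combined injection) cRPKM at the 1-cell stage and 15.5 to 20.6 at the 2-cell stage. The 8 sperm markers summed to 3.67 to 6.94 cRPKM over all 8 libraries, with Smcp at 0 reads, and the 8 blood markers to 2.31 to 17.8, with Hbb-bs and Hbb-bt at 0 reads.

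Every member was on average lower in 2-cell than in 1-cell embryos, by very different amounts. The 3 SF3A genes and the SF3B genes Sf3b1 and Sf3b2 fell between 4.45-fold and 9.94-fold. Snrpa1, Snrpb2, Sf3b3 and Sf3b4 fell between 2.09-fold and 3.45-fold, and Phf5a fell 1.37-fold, a change that depended on the scaling. In edgeR's quasi-likelihood test with Benjamini-Hochberg adjustment at 0.05, 10 of 10 members fell, against 34.2% of all 15400 genes tested (37.2% rose). The list was chosen with earlier results of these data known. It leaves out the SF3B subunits Sf3b5 and Sf3b6, which rose 2.25-fold and 2.44-fold, so the fall does not cover all of SF3B. A fall of at least 4-fold was found for 5 of 10 members and for 6.81% of all genes. The median change of the members was -1.97 on the log2 scale, beside 0.06 over all genes tested. All 10 members passed the filter on low counts.

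These folds compare shares of the polyadenylated RNA of a pool. Gene folds and log2 changes from edgeR were scaled between libraries by the TMM method. The printed cRPKM values were not, so their ratios differ from those folds. Less of a transcript per embryo, a shorter poly(A) tail and more of other transcripts cannot be told apart. Each stage had 4 libraries that differed in the injected mRNA, and the model removed differences between injections that both stages shared. The p-values thus measure how much the stage change varied between injections, and not the spread between replicate pools of 1 treatment. Scaled to library totals in place of the TMM method, the median of all genes moved from 0.065 to 0.344 on the log2 scale, and the genes that passed split into 6832 higher and 4157 lower in place of 5728 and 5270.

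**Figure D1:**
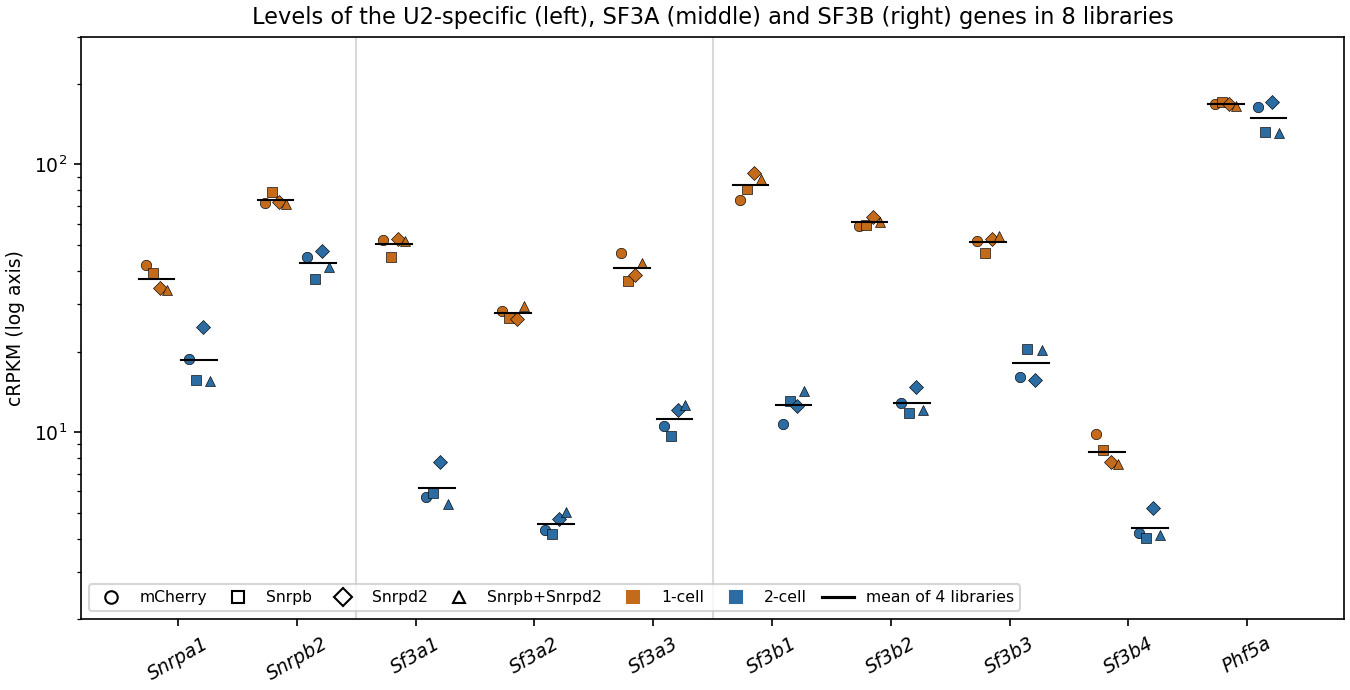
Level of each member in the 8 libraries, in cRPKM on a log axis. Orange symbols are 1-cell and blue symbols 2-cell libraries, the shape gives the injected mRNA, and the short lines are means of 4 libraries. The stages overlap for Phf5a and not for the other genes shown. The share of all genes with the stages apart was not counted.

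The U2-specific proteins bind each other and the U2 RNA. Snrpa1 encodes a leucine-rich repeat protein that lets its partner bind the right stem-loop. Its levels in the 1-cell mCherry, Snrpb, Snrpd2 and combined libraries were 42.09, 39.17, 34.46 and 33.93 cRPKM. In the 2-cell libraries, in the same order, they were 18.70, 15.59, 24.65 and 15.54 cRPKM. The stages did not overlap, and the Snrpd2 library was the highest at the 2-cell stage. The fall was 2.47-fold (log2 change -1.30, SE 0.15, edgeR adjusted p = 3.19e-05).

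Snrpb2 encodes the partner with the RNA recognition motif, and was the member with the second highest mean level in 2-cell embryos. It stood at 71.47, 78.99, 72.20 and 71.34 cRPKM at the 1-cell stage and at 45.24, 37.46, 47.29 and 41.33 cRPKM at the 2-cell stage, in the order of injections given above. The lowest 1-cell library was above the highest 2-cell library. Snrpb2 fell 2.09-fold (log2 change -1.06, SE 0.12, edgeR adjusted p = 2.72e-05).

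SF3A showed the steepest fall of the 3 groups. Its summed level went from 119 ± 8.32 to 22 ± 2.21 cRPKM (mean ± SD, n = 4 libraries), a ratio of 5.43. The sums and their ratios are of cRPKM without TMM scaling, and so are not on the scale of the gene folds from edgeR. The U2-specific pair went from 111 ± 6.04 to 61.5 ± 8.32 cRPKM, a ratio of 1.8, and the 5 SF3B genes from 373 ± 9.75 to 197 ± 18.8 cRPKM, a ratio of 1.89. The last ratio was carried by Phf5a, which made up most of the SF3B sum in 2-cell embryos. With TMM scaling, the median log2 changes of the groups were -2.89 (SF3A), -1.79 (SF3B) and -1.18 (U2-specific).

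Sf3a1, the scaffold of SF3A, had the largest fall of the members. Its levels were 52.19, 44.96, 52.70 and 51.68 cRPKM in the 1-cell libraries and 5.72, 5.93, 7.71 and 5.40 cRPKM in the 2-cell libraries. The 1-cell Snrpb library was the low value of its stage and the 2-cell Snrpd2 library the high value, and the stages stayed far apart. The fall was 9.94-fold (log2 change -3.31, SE 0.12, edgeR adjusted p = 2.27e-08). Of the 15400 genes tested, 0.955% had a larger fall.

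Sf3a2, a zinc finger protein at the interface with the core of the particle, was at 28.38, 26.69, 26.46 and 29.70 cRPKM at the 1-cell stage. At the 2-cell stage it was at 4.31, 4.15, 4.72 and 5.02 cRPKM. The 4 libraries of each stage lay close together. Sf3a2 fell 7.42-fold (log2 change -2.89, SE 0.13, edgeR adjusted p = 4.35e-08). Sf3a2 shares 429 exon bases with Plekhj1 on the opposite strand, which had 2714 to 4955 reads, and whether the counting used strand is not given in the sources used here.

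Sf3a3, the zinc finger subunit that joins SF3A to the core of the particle, was at 46.50, 36.68, 38.55 and 42.88 cRPKM in 1-cell and 10.54, 9.63, 12.06 and 12.65 cRPKM in 2-cell embryos. The mCherry library was the highest at the 1-cell stage and lay inside the range of the injected libraries at the 2-cell stage. The fall was 4.45-fold (log2 change -2.15, SE 0.13, edgeR adjusted p = 2.25e-07).

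Among the SF3B genes the size of the fall ran from that of SF3A down to almost none. Sf3b1 encodes the large HEAT-repeat protein that grips the branch helix, and is the target of splicing inhibitors and of mutations in blood cancers. Its 1-cell levels were 73.75, 81.04, 92.60 and 88.48 cRPKM, and its 2-cell levels were 10.69, 13.09, 12.54 and 14.21 cRPKM. The mCherry library was the lowest at both stages. Sf3b1 fell 8.07-fold (log2 change -3.01, SE 0.12, edgeR adjusted p = 2.63e-08), and 1.63% of all genes tested had a larger fall.

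Sf3b2, which binds RNA next to the branch site together with Sf3b4, was at 58.73, 59.55, 63.58 and 61.04 cRPKM at the 1-cell stage. It was at 12.80, 11.81, 14.68 and 12.05 cRPKM at the 2-cell stage. Its fall was 5.76-fold (log2 change -2.53, SE 0.11, edgeR adjusted p = 4.5e-08), with little spread between injections at either stage.

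Sf3b3, a beta-propeller scaffold of SF3B, was at 51.82, 46.76, 52.63 and 53.86 cRPKM in 1-cell embryos. In 2-cell embryos it was at 16.07, 20.51, 15.66 and 20.30 cRPKM, so that both libraries given Snrpb mRNA were above both others. The fall over all injections was 3.45-fold (log2 change -1.79, SE 0.13, edgeR adjusted p = 7.6e-07). Sf3b3 shares 188 exon bases with Cog4 on the opposite strand, which had 2473 to 6698 reads.

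Sf3b4, the RNA recognition motif partner of Sf3b2, had the fewest reads of the members, from 73 to 246 per library. Its levels were 9.84, 8.56, 7.71 and 7.58 cRPKM at the 1-cell stage and 4.20, 4.02, 5.20 and 4.13 cRPKM at the 2-cell stage. The stages did not overlap. The fall was 2.33-fold, and its error was the largest of the members (log2 change -1.22, SE 0.24, edgeR adjusted p = 0.00104). A processed pseudogene, Gm7935, matches 1278 bases of the Sf3b4 transcript at 99.296% identity and was itself listed with 0 to 2 reads. How reads that fit both were treated is not given in the sources used here, so the level of Sf3b4 is uncertain.

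Phf5a encodes a small zinc finger protein that sits against the branch-site pocket of Sf3b1, and had the highest level of the members at both stages. It was at 168.77, 170.94, 168.20 and 165.04 cRPKM in 1-cell embryos and at 163.78, 132.44, 170.90 and 130.80 cRPKM in 2-cell embryos. The 2-cell mCherry and Snrpd2 libraries were near the 1-cell level and both libraries given Snrpb mRNA were below it. With TMM scaling Phf5a fell 1.37-fold (log2 change -0.46, SE 0.12, edgeR adjusted p = 0.00535). With library totals the change was -0.18 (edgeR adjusted p = 0.182), and limma on log2(cRPKM + 0.1) gave -0.18 (adjusted p = 0.156), so this fall was lost under another scaling. The other 9 members passed in all 17 settings of the test.

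**Figure D2:**
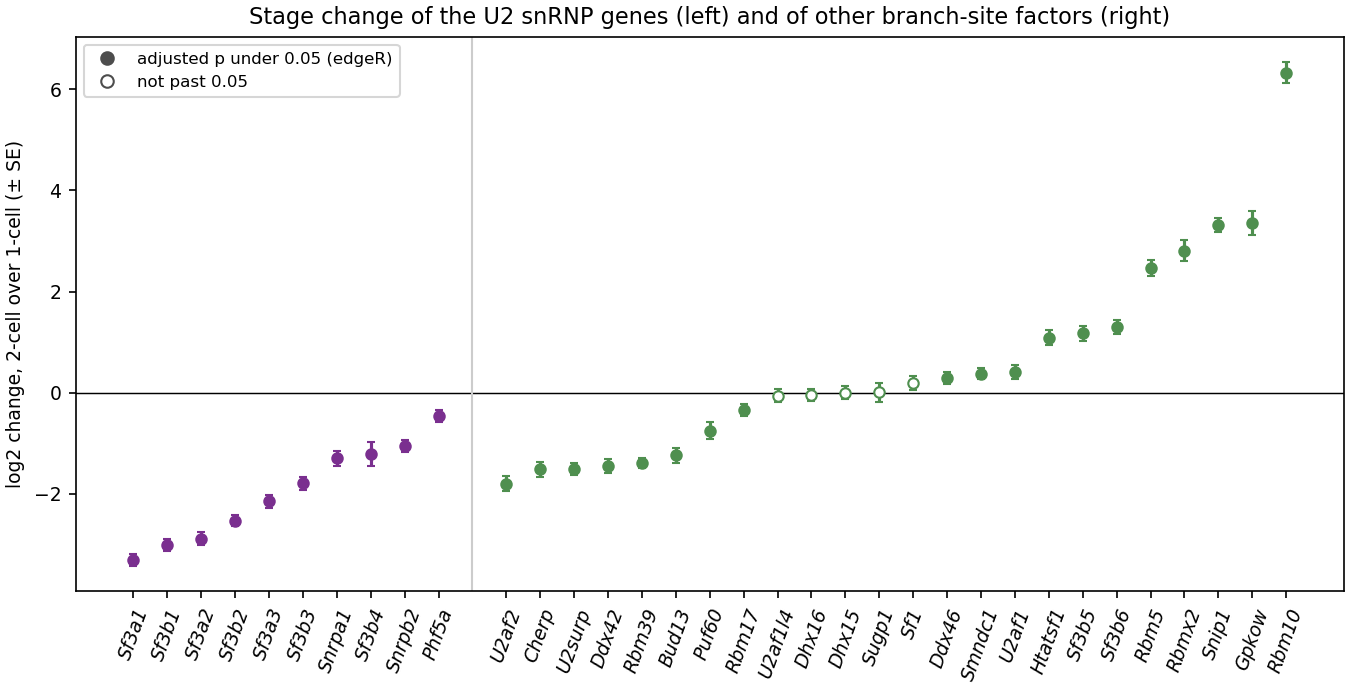
Log2 difference of 2-cell over 1-cell embryos with its standard error, from edgeR's additive model of stage and injection. Purple points are the 10 members and green points the 24 other U2-related and branch-site factors, which include Sf3b5 and Sf3b6. Filled points passed an adjusted p of 0.05. All members lie below 0, from -0.46 (Phf5a) to -3.31 (Sf3a1), while the other factors run from -1.80 to 6.33.

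The fall was also measured separately for each injected mRNA. Within matched injections, the fall of Sf3a1 ranged from 8.52-fold to 11.3-fold, that of Sf3b1 from 7.35-fold to 9.21-fold, and that of Sf3a2 from 6.98-fold to 8.12-fold. The ranges of these 3 genes lay wholly above that of Sf3b2 (5.34-fold to 6.37-fold), which lay wholly above that of Sf3a3 (3.98-fold to 5.14-fold). The smaller falls varied more: Snrpa1 from 1.74-fold (Snrpd2) to 3.17-fold (Snrpb), Snrpb2 from 1.84-fold to 2.66-fold, Sf3b3 from 2.88-fold to 4.19-fold, and Sf3b4 from 1.85-fold to 2.73-fold. Phf5a fell between 1.2-fold and 1.63-fold with TMM scaling, and the ratio of its deposited cRPKM values ran from 0.984 to 1.29. In the mCherry libraries alone, which have no replicate, all 10 log2 changes were below 0, from -0.26 (Phf5a) to -3.41 (Sf3a1).

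Ratios between members within a library do not depend on the scaling between libraries. The log2 ratio was compared between the 4 libraries of each stage for all 45 pairs of members, with exact two-sided permutation tests over 70 assignments, whose smallest p is 0.0286. For 37 pairs the 4 ratios of one stage lay wholly apart from those of the other (adjusted p = 0.0347 over the 45 pairs, exact permutation test). The share of such pairs among all genes was not counted, so whether this number is particular to the members is not known. The 45 pairs also reuse the same genes and libraries. Sf3a1 against Phf5a changed the most, from -1.74 ± 0.12 to -4.60 ± 0.17 on the log2 scale (mean ± SD, n = 4), a 7.23-fold change of the ratio. Within SF3A, the ratio of Sf3a1 to Sf3a3 went from 0.30 ± 0.12 to -0.86 ± 0.26, and that of Sf3a1 to Sf3a2 from 0.86 ± 0.11 to 0.43 ± 0.25. The 3 subunits of SF3A therefore changed unequally.

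For 8 pairs the test did not pass. The pair Sf3a2 and Sf3b1 shifted by 0.12 (exact permutation p = 0.343), and Sf3a1 and Sf3b1 by -0.30 (exact permutation p = 0.171). The U2-specific partners Snrpa1 and Snrpb2 shifted by -0.24 (exact permutation p = 0.114). Sf3b4 against Snrpa1 and against Snrpb2 shifted by no more than 0.16 in size, with exact permutation p = 0.343 and 0.257. With 4 libraries against 4, these values do not show that the pairs moved alike. The remaining pairs were Snrpa1 and Sf3b3, Sf3a2 and Sf3b2, and Sf3a3 and Sf3b3. These tests did not match libraries by injection, and a matched test over 4 injections could not pass, its smallest exact permutation p being 0.125. Within injections, the ratio of Sf3a2 to Sf3b2 shifted by -0.52 (mCherry), -0.35 (Snrpb), -0.37 (Snrpd2) and -0.22 (combined), and so went the same way in all 4. It was the 1 pair of these 8 that did so.

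The unequal falls changed the order of the members. In 1-cell embryos the mean levels were 168 (Phf5a), 84 (Sf3b1), 73.5 (Snrpb2), 60.7 (Sf3b2), 51.3 (Sf3b3), 50.4 (Sf3a1), 41.2 (Sf3a3), 37.4 (Snrpa1), 27.8 (Sf3a2) and 8.42 (Sf3b4) cRPKM. Neighbours in that order whose ranges overlapped were Sf3b1 and Snrpb2, Sf3b3 and Sf3a1, Sf3a1 and Sf3a3, and Sf3a3 and Snrpa1. In 2-cell embryos the order was Phf5a (149), Snrpb2 (42.8), Snrpa1 (18.6), Sf3b3 (18.1), Sf3b2 (12.8), Sf3b1 (12.6), Sf3a3 (11.2), Sf3a1 (6.19), Sf3a2 (4.55) and Sf3b4 (4.39). Ranges overlapped for Snrpa1 and Sf3b3, Sf3b2 and Sf3b1, Sf3b1 and Sf3a3, and Sf3a2 and Sf3b4. Thus Sf3b1 went from the second to the sixth place, and Snrpa1 from the eighth to the third. Summed over the 10 members the level went from 603 ± 6.76 to 281 ± 28.2 cRPKM, a ratio of 2.15 without TMM scaling.

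Levels between genes depend on the length by which the reads were divided. The length implied by the deposited values was 448 bases for Sf3b4 and 815 for Phf5a, while their longest coding transcripts in GENCODE have 1915 and 1663 bases. The widest gap among the other members was 1740 against 2213 bases for Sf3a2. The order of levels is therefore uncertain for Sf3b4 and Phf5a, and the stage changes are not touched by the length.

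SF3B has 2 further small subunits, Sf3b5 and Sf3b6, which were not on the list of members and were singled out after their values were seen. Both rose. Sf3b6 was at 6.12, 7.25, 5.41 and 6.25 cRPKM in 1-cell and at 17.22, 19.54, 18.28 and 18.84 cRPKM in 2-cell embryos. Its rise was 2.44-fold (log2 change 1.29, SE 0.14, edgeR adjusted p = 2.17e-05). Sf3b5 was at 29.41, 24.72, 21.73 and 25.09 cRPKM and then at 67.33, 61.28, 84.67 and 62.97 cRPKM, a rise of 2.25-fold (log2 change 1.17, SE 0.15, edgeR adjusted p = 5.03e-05). In the summed cRPKM of the 7 SF3B subunits, Sf3b1 went from 20.8% ± 1.75 to 4.48% ± 0.838 (SD, n = 4) and Sf3b2 from 15% ± 0.295 to 4.5% ± 0.0881. Sf3b5 went from 6.25% ± 0.864 to 24.1% ± 1.48, Sf3b6 from 1.55% ± 0.207 to 6.54% ± 0.884, and Phf5a from 41.6% ± 1.14 to 52.3% ± 2.9. Phf5a, Sf3b5 and Sf3b6 thus made up most of the SF3B transcript sum at the 2-cell stage. The length implied for Sf3b5 was 684 bases against 3841 in GENCODE, which bears on these shares and not on its rise.

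**Figure D3:**
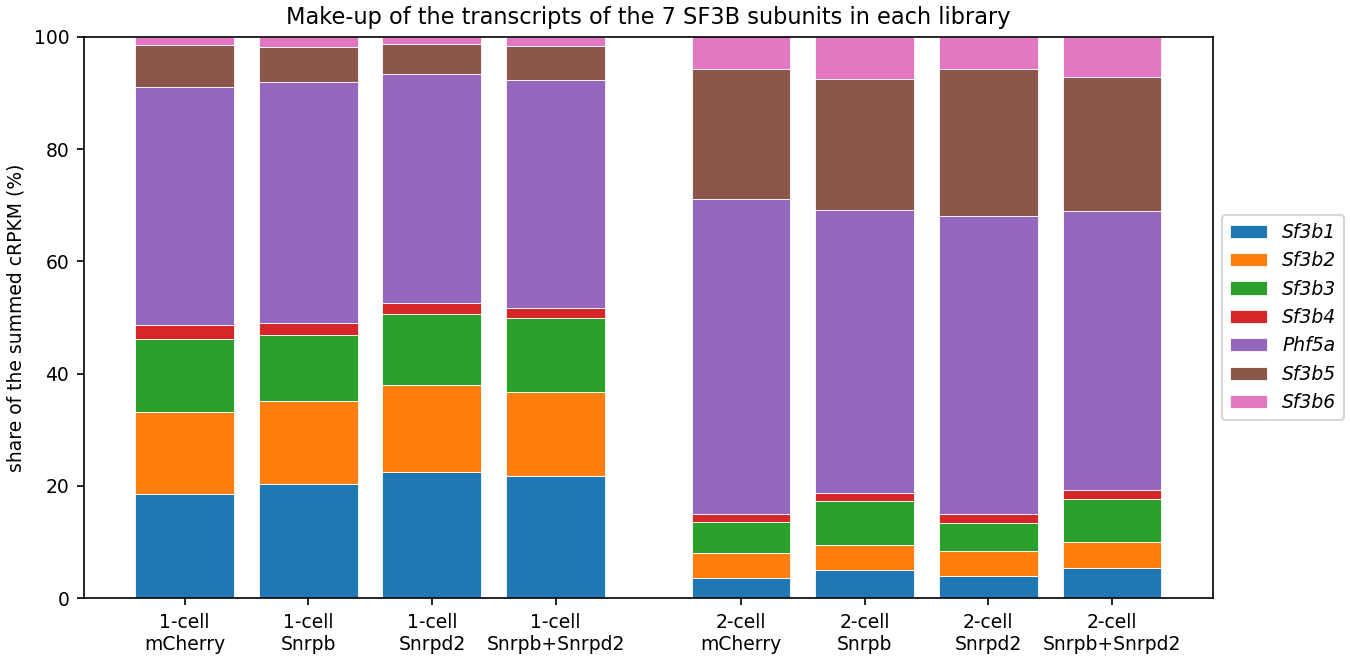
Share of each of the 7 SF3B subunits in their summed cRPKM, in percent, with 1 bar for each library. The blue, orange and green parts at the bottom (Sf3b1, Sf3b2, Sf3b3) are smaller in every 2-cell library, with Sf3b1 at 18.5% in the 1-cell and 3.66% in the 2-cell mCherry library.

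The other genes listed beside the members moved in both directions. Of 24 other U2-related and branch-site genes, 11 rose, 8 fell and 5 did not pass the edgeR test, with a median log2 change of 0.10. The 24 include Sf3b5 and Sf3b6, which are SF3B subunits and are among the 11 that rose. Over all genes tested 37.2% rose and 34.2% fell, with a median of 0.06, so these counts were near those of all genes. Their difference from the 10 of 10 members lower was given no test. The largest rise was that of Rbm10, an RNA-binding regulator of exon inclusion, from 0.52 ± 0.187 to 49.2 ± 4.36 cRPKM (80.4-fold, log2 change 6.33, SE 0.21, edgeR adjusted p = 1.69e-08). Gpkow, a partner of a spliceosomal helicase, rose from 0.537 ± 0.17 to 6.5 ± 0.983 cRPKM (10.2-fold, edgeR adjusted p = 8.54e-07). The largest falls were those of U2af2, which binds the polypyrimidine tract and recruits the U2 snRNP, from 15.9 ± 1.83 to 5.56 ± 0.881 cRPKM (3.48-fold, edgeR adjusted p = 2.68e-06), and Cherp, a U2-associated protein, from 31.1 ± 8.11 to 12.8 ± 0.948 cRPKM (2.88-fold, edgeR adjusted p = 7.38e-06). With TMM scaling 0 of the 24 fell by at least 4-fold, where 5 of the members and 6.81% of all genes did. For a list of 24 genes, 0 is near the share over all genes. After adjustment in edgeR, 0 of the 24 passed a test of injection. At the unadjusted level 5 passed at the 1-cell and 2 at the 2-cell stage, where 15.5% and 3.78% of all genes passed.

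Over the 8 libraries, the profiles nearest to that of Sf3a1 among the 15400 genes belonged to Anapc4, Pdcd7 and Kat14. Their Euclidean distances between centred log2 profiles were 0.311, 0.318 and 0.327. Anapc4 went from 40.8 ± 3.67 to 5.14 ± 0.609 cRPKM, Pdcd7 from 238 ± 15.9 to 30.1 ± 2.92 and Kat14 from 112 ± 12.6 to 13.6 ± 1.04. The nearest other member was Sf3b1 at a distance of 0.71, with 122 genes nearer.

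The last bases of a maternal mRNA carry signals that set its poly(A) tail, and a polyadenylated RNA library reads mRNAs through that tail. The ends of the members' longest coding transcripts (GENCODE M21, build GRCm38) were searched on the mRNA strand for the cytoplasmic polyadenylation element, as TTTTAT or TTTTAAT, and for the polyadenylation signal, as AATAAA or ATTAAA. In the last 100 bases, the first was found in 4 of 10 members and in 18.4% of 14948 genes tested. The second was found in 10 of 10 members and in 80.8% of those genes. The 4 members with the element are shown first, as windows of 30 bases in the 3′ UTR with the element in capitals, and then the 2 members with the smallest log2 changes, which lack it, with the polyadenylation signal in capitals.
Sf3a1: catTTTTATaaaaataagttgttctattaa
Sf3b1: tgaTTTTATttttTTTTATattgtattttt
Sf3a3: gtgTTTTATctttgTTTTATattaaaaaga
Snrpa1: attTTTTAATaggaaccttgaaataacaat
Snrpb2: tttccaAATAAAagtaaaatttattcaaac
Phf5a: agaAATAAActtttaagggttttggtttga

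On GRCm38 these windows lie in the last exons, at chr11:4182462-4182491 (Sf3a1, plus strand), chr1:54985237-54985266 (Sf3b1, minus strand) and chr4:124732378-124732407 (Sf3a3, plus strand). The others are at chr7:66074508-66074537 (Snrpa1, plus strand), chr2:143072824-143072853 (Snrpb2, plus strand) and chr15:81864520-81864549 (Phf5a, minus strand). Members with the element had log2 changes of -3.31, -3.01, -2.15 and -1.30, and members without it ran from -2.89 (Sf3a2) to -0.46 (Phf5a), so the groups overlapped. A match of these letters is a description of the sequence. Which end the embryos used was not measured.

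Injection of Snrpb or Snrpd2 mRNA gave no change of a member that passed a test at either stage. Taking the 3 injected libraries of a stage together against mCherry, 0 of 10 members passed edgeR's test at the 1-cell stage, where 0% of all 16867 genes did. Their log2 changes ran from -0.27 (Sf3b4) to 0.28 (Sf3b1, SE 0.14, adjusted p = 0.381). At the unadjusted level of 0.05, 0 of 10 members and 2618 of all genes (15.5%) passed, while DESeq2 called 534 genes after adjustment and limma on log2(cRPKM + 0.1) called 1 gene, none of them a member. At the 2-cell stage 0 of 10 members and 0% of all genes passed edgeR's test, with log2 changes from -0.22 (Phf5a) to 0.27 (Sf3b1, adjusted p = 1). There 637 genes (3.78%) and 0 members passed at the unadjusted level, DESeq2 called 0 genes and limma 3. The lone mCherry library of each stage was assumed to vary like the injected ones. The grouping also counts differences between the injected mRNAs as spread. Even the injected Snrpb and Snrpd2 were not called. At the 1-cell stage Snrpb was at 43849.91 (Snrpb), 6.09 (Snrpd2) and 11913.49 (combined) cRPKM against 7.96 in mCherry. The result therefore does not show that the members were unchanged by either mRNA.

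The difference between both effects, a test of whether injection acted differently at the 2 stages, passed for 0 of 10 members and 0% of all genes in edgeR. At the unadjusted level it passed for 1648 genes (9.77%) and 0 members, and DESeq2 called 31 genes and limma 1, none of them a member. The member with the largest difference was Sf3b4 (0.31, SE 0.45, edgeR adjusted p = 0.855).

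Each injected library was also set against the mCherry library of its stage, with an exact conditional binomial interval at 95% that covers counting error only. A gene was counted where the ratio was at least 1.5-fold either way and the whole interval lay beyond 1. By that rule 0 of 10 members were counted in any library. Over all genes the rule counted 16.1% (Snrpb), 21.7% (Snrpd2) and 14.1% (combined) at the 1-cell stage and 14.2%, 13.8% and 11.7% at the 2-cell stage. The members' ratios had medians of 1.01, 1.05 and 0.99 at the 1-cell stage and 0.932, 1.12 and 0.946 at the 2-cell stage. The lowest was 0.767 (Sf3b4, 1-cell combined library) and the highest 1.31 (Sf3b1 and Sf3a1).

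**Figure D4:**
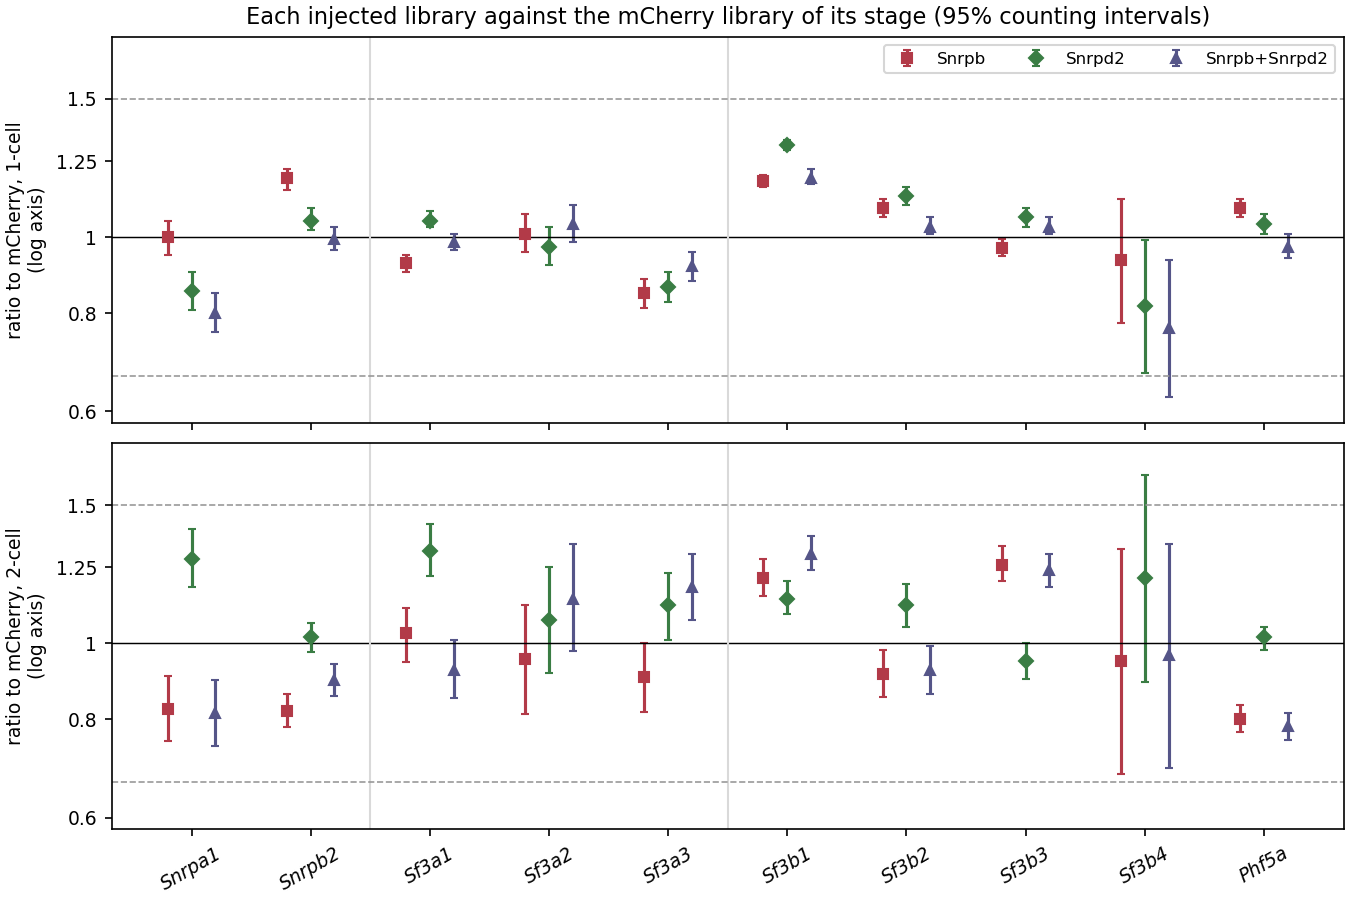
Ratio of each injected library to the mCherry library of its stage, on a log axis, for the 1-cell stage (top) and the 2-cell stage (bottom). Bars are exact 95% intervals for counting error, and dashed lines mark 1.5-fold either way. All ratios lie between the dashed lines, and Sf3b1 is above 1 in all 6 libraries.

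Sf3b1 was the member whose ratio was above 1 with its whole interval in all 6 injected libraries. The ratios were 1.18 (1.16 to 1.2), 1.31 (1.29 to 1.33) and 1.19 (1.17 to 1.22) at the 1-cell stage, for the Snrpb, Snrpd2 and combined injections. At the 2-cell stage they were 1.21 (1.15 to 1.28), 1.14 (1.09 to 1.2) and 1.3 (1.24 to 1.37). The 3 ratios of a stage share its mCherry library, so they are not separate observations. The summed cumulus and granulosa markers were also lowest in mCherry at both stages, and their part in these ratios was not tested.

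At the 2-cell stage both libraries given Snrpb mRNA lay to one side of both others in several members, here compared as ratios to mCherry. Sf3b3 was at 1.26 (1.2 to 1.33) and 1.24 (1.18 to 1.3) of mCherry in the Snrpb and combined libraries, and at 0.95 (0.902 to 1) in the Snrpd2 library. Phf5a was at 0.802 (0.771 to 0.834) and 0.784 (0.753 to 0.816), and at 1.02 (0.981 to 1.05) with Snrpd2. For Snrpa1 the values were 0.826 (0.75 to 0.91), 0.816 (0.74 to 0.899) and 1.28 (1.18 to 1.4). The gaps were narrower in other members. Snrpb2 was at 0.821 (0.783 to 0.861), 0.897 (0.856 to 0.94) and 1.02 (0.975 to 1.06), and Sf3b2 at 0.915 (0.854 to 0.981), 0.924 (0.862 to 0.991) and 1.12 (1.05 to 1.19). Sf3b1 lay above and Sf3b4 below both other libraries as well, and the intervals of Sf3b4 all held 1. The SF3A genes did not show this pattern, and its share over all genes was not counted. Members measured in the same libraries are not separate observations.

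These patterns were noticed in the data, and libraries given Snrpb mRNA were then compared with those not given it, a comparison added after the values were seen. The log2 differences were 0.38 (SE 0.14) for Sf3b3, -0.46 (SE 0.19) for Snrpa1 and -0.33 (SE 0.14) for Phf5a. These 3 of 10 members passed edgeR's test at an unadjusted level of 0.05, and 0 passed after adjustment (edgeR adjusted p = 0.807 for each). Over all 16264 genes 6.13% passed at the unadjusted level and 0.00615% after adjustment, which was Snrpb alone. At the 1-cell stage 0 members passed at either level, while 4.09% of all genes passed at the unadjusted level and 0.0123% after adjustment (Snrpb and Ctsl). For Snrpd2 mRNA given or not, 0 members passed at either level. Of all genes 6.21% (1-cell) and 3.09% (2-cell) passed at the unadjusted level, and 0.00615% at each stage after adjustment, which was Snrpd2 alone. DESeq2 and limma were not run on these groupings.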

How the data were processed

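Polyadenylated RNA of 8 pools of mouse embryos was measured, per the labels' protocols with the SMARTer Stranded kit on a HiSeq2500. The authors deposited, for each library, whole-number counts of reads per gene and cRPKM, an RPKM value, for 22667 Ensembl genes. Of these, 1114 had no value in any library, and 20451 of the 21553 others took a symbol from GENCODE M21. Per the submitters' processing notes, the genome build was mm9. No aligner, gene annotation or strand setting is given in the sources used here. GRCm38 transcripts were used for sequence ends, copies (BLAST 2.17.0) and overlaps only.

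Counts were tested with edgeR 4.0.16 (quasi-likelihood test, TMM, filterByExpr, Benjamini-Hochberg adjustment over all genes tested) in R 4.3.3. The stage effect came from an additive model of stage and injection (15400 genes, 3 residual degrees of freedom, common dispersion 0.0417). Injection effects came from 4 groups of stage by injected or mCherry (16867 genes, 4 residual degrees of freedom, common dispersion 0.0362). Both were run on simulated counts with a fixed dispersion and no differences between the injected mRNAs. That setting does not test the use of differently injected libraries in place of replicates. DESeq2 1.42.0 and limma 3.58.1 on log2(cRPKM + 0.1) or log2(cRPKM + 1), for genes with at least 0.5 cRPKM in 2 libraries, were alternatives, with other scalings and filters and each library left out. Library ratios used TMM scaling and a minimum of 50 reads in 1 of both libraries. Intervals hold for counting error alone, since reads were not tagged by molecule before PCR.

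The members and gene lists were chosen with earlier results of these data known. All members were named. Of the 24 other factors, the 2 with the largest rise and the 2 with the largest fall past an adjusted p of 0.05 were named, with any that passed an injection test. For the members with the largest fall and the largest rise (none rose), the 3 genes with the nearest profile of log2(TMM CPM + 0.5), centred over 8 libraries, were named.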

Additional observations from a re-analysis of the deposited data

Results flagged for a closer look

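In each stage, the level of each member was examined for a library far from the other 3, by the gap to its nearest neighbour relative to the whole range (Dixon's criterion at the 95% level). Of 20 groups of 4 libraries 3 met it, and chance gives about 1 in 20. Snrpb2 was at 78.99 cRPKM in the 1-cell Snrpb library, where the others lay between 71.3 and 72.20. In the same library Sf3a1 was at 44.96 cRPKM, below the 51.68 to 52.70 of the others. Sf3b4 was at 5.20 cRPKM in the 2-cell Snrpd2 library, where the others lay between 4.02 and 4.20, on 104 reads against 73 to 80.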

How the results depend on the processing

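Over 160 combinations of a member and an alternative setting, the stage effect kept its direction in all and its side of the threshold in 157. The 3 exceptions were Phf5a, at -0.18 with library totals, with limma on log2(cRPKM + 0.1) and with limma on log2(cRPKM + 1). Leaving out libraries kept all members lower, and without both mCherry libraries, chosen after seeing the data, 10 members were lower among 5490 genes higher and 5050 lower. In the mCherry libraries alone the log2 change was -0.88 for Snrpb2, -2.36 for Sf3a3 and -0.26 for Phf5a. No member passed an injection test or the test of stage dependence in any setting.

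Counts over all genes moved more, and the cause was not tested. At the 1-cell stage, injected against mCherry gave 534 genes with DESeq2, 1 with limma and a pseudocount of 0.1, and 0 to 3 when each library but the 1-cell mCherry library, the lone control, was left out (2 without the 1-cell Snrpd2 library and 3 without the 1-cell combined library). Grouping by Snrpb or Snrpd2 mRNA, added after seeing the data, gave 2 and 1 genes there. At the 2-cell stage limma gave 3 genes with a pseudocount of 0.1 and 1 with a pseudocount of 1, and grouping by Snrpb or Snrpd2 mRNA gave 1 gene each. For stage dependence DESeq2 gave 31 genes and limma 1 with either pseudocount.

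With a minimum of 10 reads in place of 50, which tests more genes, library ratios counted 2859 (1-cell Snrpb), 2541 (1-cell combined), 2952 (2-cell Snrpb), 2898 (2-cell Snrpd2) and 2570 (2-cell combined) genes. Of 180 member ratios under other settings 150 moved less than their interval, 30 moved more, in the 1-cell Snrpb and Snrpd2 libraries under library totals or cRPKM, and 0 reversed a call. The stage effect matched the stages by injected mRNA, and without that term 5934 genes were higher, 5473 lower and 10 members lower. The labels give no replicate numbers, so no replicate block was fitted. Depth limits Sf3b4 (73 to 246 reads) most among the members.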
